A study of Mus musculus with 217 samples.

Results

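The 5 transcription factor genes tied to chondrocyte hypertrophy, Foxa2, Foxa3, Mef2c, Runx2 and Sp7, were followed across single cells of the mouse growth plate. They were chosen by name, with earlier results of these data known, and all 5 are among the 9739 genes with values. The cells came from microdissected tibial growth plates of C57/BL mice, wild type and 7 days old, and full-length cDNA was made from their polyA RNA. All 217 columns of values carry the same labels and no animal is named, so they were treated as 1 sample of 1 group. No test was possible, and each interval given is a 95% exact (Clopper-Pearson) interval that covers counting error only, and intervals of differences were built from these. Columns that correlated above 0.95 were averaged as repeats of one cell, 1 mixed column was dropped, and the profiles with Acan, the gene of the cartilage proteoglycan aggrecan, at 5 or more are the chondrocyte profiles described here: 88 with more and 88 with fewer genes detected. The other 11 profiles had less Acan. No profile lay near this threshold: the highest value below it was 2.91 and the lowest above it was 6.67.

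In the growth plate, chondrocytes stop dividing, enlarge and switch their matrix to collagen X, the product of Col10a1, before bone replaces them. On the way they secrete Indian hedgehog (Ihh), and the latest cells make acidic proteins of mineralizing matrix such as bone sialoprotein (Ibsp). Work in mice has placed the 5 factors in this step. FOXA2 and FOXA3 are forkhead proteins that share their DNA-binding domain and that chondrocytes need, together, for full hypertrophy. MEF2C is a MADS-box protein that histone deacetylase 4 holds in check. RUNX2, a runt-domain protein, and SP7 (osterix), a zinc finger protein, act in hypertrophic chondrocytes and are required in osteoblasts for bone to form.

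The genes lie on different chromosomes of GRCm38 (mm10) in the GENCODE M21 annotation: Foxa2 at chr2:148042877-148046969, Foxa3 at chr7:19013284-19023538, Mef2c at chr13:83504034-83667080, Runx2 at chr17:44495987-44814797 and Sp7 at chr15:102356606-102367182. Foxa2, Foxa3, Runx2 and Sp7 are on the minus strand and Mef2c is on the plus strand. Runx2 overlaps Supt3, a gene of a transcription coactivator complex on the opposite strand, over 37646 bases. Whether the counting used strand is not given in the sources used here, so reads of these 2 genes may not be separable. Supt3 was detected in 6 of 18 profiles with Runx2 and in 62.7% (99 profiles) of those without it. The other 4 members overlap no annotated gene.

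Promoter sequences are given for Col10a1 and for the 3 factors whose detection differed most with it, Foxa2, Foxa3 and Mef2c, and for Runx2, which was less frequent with it. Each is the 250 bases before a RefSeq start in GRCm38.p6, written 5′ to 3′ on the gene's strand. Foxa2 and Mef2c each have 3 RefSeq starts and the outermost is shown. The windows are chr10:34389731-34389980 (plus strand) for Col10a1, chr2:148046970-148047219 (minus) for Foxa2, chr7:19023540-19023789 (minus) for Foxa3, chr13:83503784-83504033 (plus) for Mef2c and chr17:44814628-44814877 (minus) for Runx2. Capitals mark matches to any of 4 motifs, searched on both strands. They are the forkhead motif TGTTTAC, the RUNX motif TGTGGT, a MEF2-like pattern CTANNNNTAG and the GC box GGGCGG, which SP proteins bind. N stands for any base, and other forms of each site were not searched.
Col10a1: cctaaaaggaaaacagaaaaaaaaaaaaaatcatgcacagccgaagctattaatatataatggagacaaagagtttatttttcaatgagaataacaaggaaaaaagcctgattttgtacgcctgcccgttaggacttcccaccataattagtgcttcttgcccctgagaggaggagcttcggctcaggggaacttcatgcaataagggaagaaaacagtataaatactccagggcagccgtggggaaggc
Foxa2: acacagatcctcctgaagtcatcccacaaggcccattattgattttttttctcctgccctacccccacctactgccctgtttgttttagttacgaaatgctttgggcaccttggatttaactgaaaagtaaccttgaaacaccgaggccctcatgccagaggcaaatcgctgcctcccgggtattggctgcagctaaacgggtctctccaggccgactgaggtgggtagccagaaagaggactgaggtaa
Foxa3: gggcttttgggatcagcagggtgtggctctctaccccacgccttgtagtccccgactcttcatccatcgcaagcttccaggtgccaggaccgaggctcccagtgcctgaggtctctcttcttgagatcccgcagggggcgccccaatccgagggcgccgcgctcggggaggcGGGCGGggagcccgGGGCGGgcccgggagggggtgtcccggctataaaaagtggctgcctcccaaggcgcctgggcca
Mef2c: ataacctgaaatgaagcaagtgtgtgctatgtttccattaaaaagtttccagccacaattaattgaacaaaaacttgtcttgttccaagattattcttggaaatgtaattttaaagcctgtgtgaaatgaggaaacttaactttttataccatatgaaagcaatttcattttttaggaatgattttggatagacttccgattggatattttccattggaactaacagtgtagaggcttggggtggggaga
Runx2: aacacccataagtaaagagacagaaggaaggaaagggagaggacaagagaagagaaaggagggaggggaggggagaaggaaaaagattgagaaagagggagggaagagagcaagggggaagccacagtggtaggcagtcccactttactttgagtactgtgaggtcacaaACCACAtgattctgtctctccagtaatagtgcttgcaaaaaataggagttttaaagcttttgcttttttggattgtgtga
Of 32851 windows of this length, 3.17% held the forkhead motif, 14% the RUNX motif, 3.20% the MEF2-like pattern and 32.7% the GC box. No motif matched another at the same bases in the windows shown. The Col10a1, Foxa2 and Mef2c windows held none of the 4 motifs. The Foxa3 window held 2 GC boxes, at 78 to 73 and 64 to 59 bases before the start. The Runx2 window held 1 RUNX motif, on the strand opposite to the gene, at 80 to 75 bases before the start. Of the windows not printed, that of Ihh held 2 GC boxes and that of Ibsp none of the 4 motifs. At the other Foxa2 starts, start 2 held 2 GC boxes and start 3 held 1. At the other Mef2c starts, start 2 held 1 GC box and start 3 none of the 4 motifs. A match is a stretch of letters and not a site shown to be bound, and no data on binding or chromatin were used here.

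Most cartilage markers were near universal, with a main exception. The 18 measured genes of the cartilage list were detected in a median of 99.4% of the profiles, and Sox9, the cartilage master regulator, in all. Col2a1, which encodes the main cartilage collagen, was detected in only 37 profiles (21%), and Cytl1 in 55 (31.2%). A gene counted as detected at 1 or more on the deposited log2(value + 1) scale. Of other cell types, medians were 3.69% over 2 endothelial genes and 5.40% over 6 genes of blood lineages. They were 37.2% over 4 perichondrial genes, with Lum in 98.9%, Dcn in 40.9% and Col3a1 in 33.5%, and 35.5% over 2 osteoclast genes, with Ctsk in 68.2% and Mmp9 in 2.84%. The part of such cells or transcripts in the results was not tested. The osteoblast list, which shares Ibsp, Runx2 and Sp7 with the genes described here, had a median of 17.9% over 14 genes. Its shares ran from 3.98% to 100%, with Sparc in all profiles, Col1a2 in 88.6% and Col1a1 in 13.6%. The median number of genes detected per profile was 3463.5 (1326 to 4994), and this number is given beside results that move with it. Sequencing depth is unknown because the values are not counts.

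Foxa3 was the most widely detected of the 5 factors and Runx2 the least. Foxa3 was detected in 69.3% of profiles (interval 61.9 to 76%). Sp7 was detected in 80 profiles (45.5%, 37.9 to 53.1%), Mef2c in 69 (39.2%, 31.9 to 46.8%), Foxa2 in 54 (30.7%, 24 to 38.1%) and Runx2 in 18 (10.2%, 6.17 to 15.7%). In this order, the intervals of Foxa3 and Sp7 and of Foxa2 and Runx2 did not overlap, whereas Sp7, Mef2c and Foxa2 each overlapped with the next. Detection depends on transcript length and capture as well as on expression, and the unit of abundance is not stated, so these shares are not a ranking of expression.

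Where they were detected, all 5 factors varied widely in level. On the log2(value + 1) scale, Foxa2 had a lowest value of 1.14, a median of 4.53 and a highest value of 8.19 among the 54 profiles with it. The same values were 1.11, 4.49 and 8.28 for Foxa3, whose range is therefore much the same. Mef2c ran from 1.06 to 6.09 with a median of 3.35. Runx2 ran from 1.17 to 6.56 (median 4.41) and Sp7 from 1.25 to 7.54 (median 4.09). Few profiles lay between 0 and the threshold: 5 for Foxa2, 4 for Foxa3, 9 for Mef2c, 1 for Runx2 and 10 for Sp7. All other values without detection were exact zeros, which may also arise where an estimate fails.

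Columns that correlated above 0.95 were taken as repeats, and detection of these low genes was compared within each set. The labels do not say that such columns come from one cell. The sets were picked by their correlation, so agreement within them is partly built in. Among 23 sets of repeats, Foxa2 was detected in every column of 3 sets, in no column of 19 and in some columns of 1. Foxa3 was split in 1 set, Mef2c in 2, Sp7 in 2 and Runx2 in none (every column of 4 sets and no column of 19). The highest value in any split set was 2.49, for Foxa3. The SD between repeats was 0.36 for Foxa2, 0.48 for Foxa3, 0.45 for Mef2c, 0.52 for Runx2 and 0.29 for Sp7, against SDs of 1.89, 1.41, 1.32, 1.53 and 1.71 between the profiles in which each was detected. Repeats may share the cDNA of one cell, so these figures leave out loss of transcripts before amplification.

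Foxa2, Foxa3 and Mef2c were detected far more often in profiles with Col10a1 than without it, and Runx2 and Sp7 were not. Col10a1 was detected in 77.8% of profiles. Foxa2 was detected in 53 of the Col10a1-positive profiles (38.7%, 30.5 to 47.4%), against 1 of the 39 profiles without Col10a1 (2.56%, 0.0649 to 13.5%). Mef2c was detected in 67 (48.9%, 40.3 to 57.6%), against 2 without Col10a1 (5.13%, 0.627 to 17.3%). Foxa3 was detected in 79.6% (71.8 to 86%), against 13 profiles (33.3%, 19.1 to 50.2%). For these 3 genes the intervals of Col10a1-positive and Col10a1-negative profiles did not overlap. With detection set at 10 before the log, the difference for Mef2c was 19.8 points in place of 43.8.

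**Figure D1:**
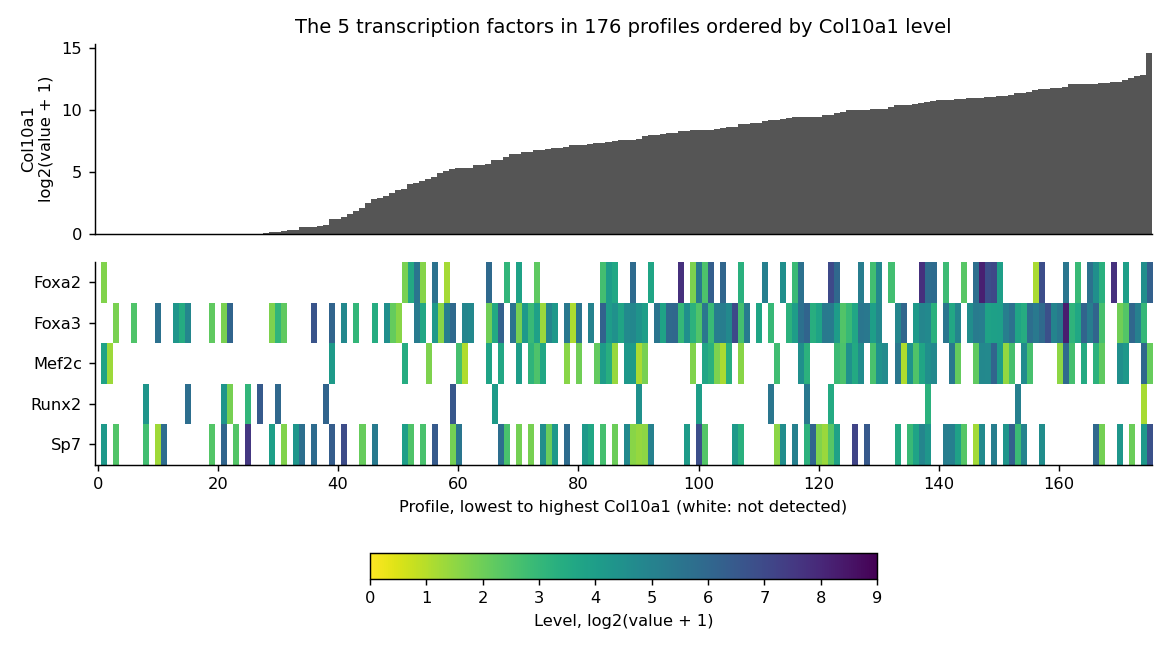
The chondrocyte profiles in order of Col10a1 level, log2(value + 1), shown as bars above, with the level of each factor in the same profile coloured below and white where it was not detected. Foxa2 and Mef2c are nearly empty over the 39 profiles without Col10a1, Foxa3 is sparser there, and Runx2 and Sp7 occur along the whole order.

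Sp7 was detected in 66 Col10a1-positive profiles (48.2%, 39.6 to 56.9%), against 14 Col10a1-negative ones (35.9%, 21.2 to 52.8%). The difference was 12.3 percentage points, and its interval of -6.71 to 29.4 points spans 0. Runx2 went the other way, with 10 Col10a1-positive profiles (7.30%, 3.56 to 13%), against 8 Col10a1-negative ones (20.5%, 9.30 to 36.5%), and these intervals overlapped, although that of the difference (-13.2 points) ran from -29.6 to -0.625. Of the 18 profiles with Runx2, 55.6% had Col10a1 (30.8 to 78.5%), against 80.4% of those without Runx2 (73.3 to 86.3%).

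Among all genes, the 3 factors were near the top of this comparison, which describes genes chosen with earlier results known. Of 8853 genes detected in at least 5% of profiles, 6.08% had a share higher by at least 20 points in Col10a1-positive profiles, and 3 of the 5 factors did. By size of difference Foxa3 (46.2 points) was number 4 of the 8853, Mef2c (43.8) number 7 and Foxa2 (36.1) number 28. Sp7 was number 1610 and Runx2 number 8716. A share at least 2-fold lower was seen in 1.88% of genes, and Runx2 was one of them. Genes as a whole were higher by a median of 4.04 points, and the median number of detected genes was 3542 in Col10a1-positive profiles, against 3025 in Col10a1-negative ones.

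The number of detected genes was therefore held closer by taking the 88 profiles with more genes and the 88 with fewer apart. With more genes, Foxa2 was detected in 33 of 78 Col10a1-positive profiles, against 0 of 10 Col10a1-negative ones, and Mef2c in 47 of 78, against 1 of 10. With fewer genes, Foxa2 was detected in 20 of 59, against 1 of 29, and Mef2c had the same counts. For Foxa3 the difference was smaller with more genes, but the intervals of the 2 differences overlapped. Foxa3 was detected in 67 of 78, against 7 of 10, in the profiles with more genes. The interval of this difference (15.9 points, -9.38 to 51.8) spans 0 and rests on 10 Col10a1-negative profiles. In the profiles with fewer genes Foxa3 was in 42 of 59, against 6 of 29, a difference of 50.5 points (27.3 to 67.3). What part the number of detected genes has in the pooled differences was not tested further.

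**Figure D2:**
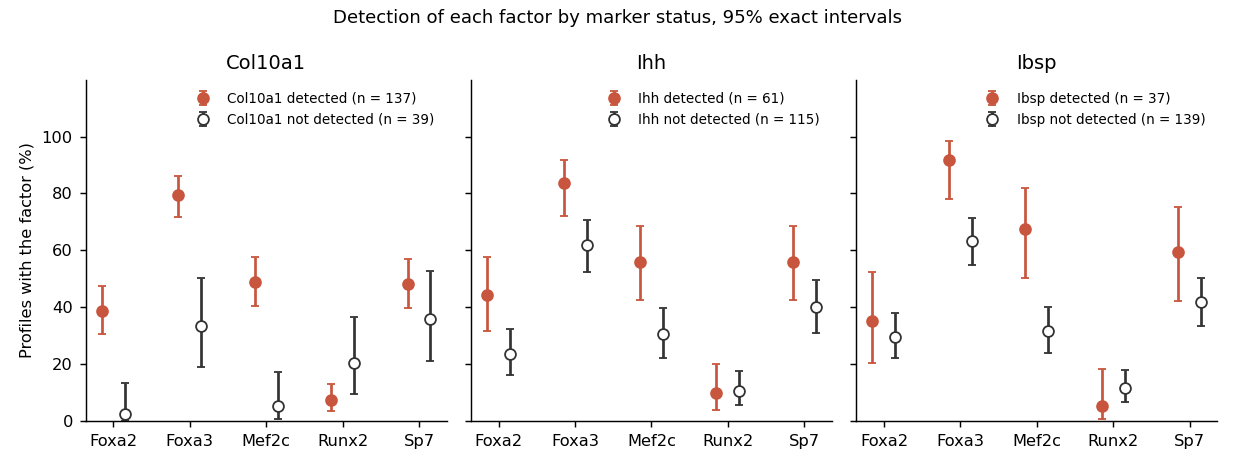
Percentage of profiles in which each factor was detected, with 95% exact intervals, where the marker named above each panel was detected (filled) and where it was not (open). Foxa2, Foxa3 and Mef2c are separated by Col10a1, Mef2c and Foxa3 also by Ihh and Ibsp, and for Runx2 and Sp7 the intervals overlap with all 3 markers.

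The levels of the factors where they were detected were compared in the same way. In the single Foxa2-positive profile without Col10a1, Foxa2 was at 1.70, against a median of 4.54 in the 53 with it. That profile had Ihh and also carried Mef2c and Sp7. The 2 Mef2c values without Col10a1 were 1.30 and 3.82, against a median of 3.35 in the 67 with it. Foxa3 had a median of 3.09 (1.75 to 6.66) in its 13 profiles without Col10a1, against 4.58 in those with it. Runx2 had a median of 4.26 in the 10 profiles with Col10a1, against 5.06 in the 8 without it, and Sp7 had 4.09, against 4.01. The few values without Col10a1 lay within the range of those with it for Foxa2 and Mef2c, and the ranges overlapped for Foxa3, Runx2 and Sp7, as the plot of levels in every profile shows.

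**Figure D3:**
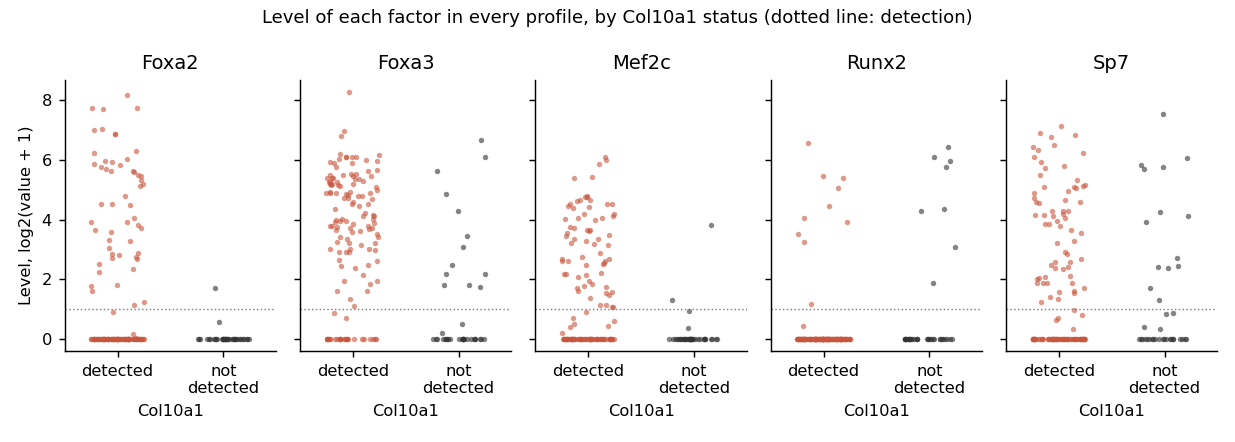
Level of each factor, log2(value + 1), in every profile, with Col10a1-positive profiles left of the 39 Col10a1-negative ones, and the detection threshold dotted. Of the 39 Col10a1-negative profiles, 1 lies above the threshold for Foxa2, 2 for Mef2c, 13 for Foxa3, 8 for Runx2 and 14 for Sp7.

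Over the Col10a1-positive profiles, Mef2c became more frequent with the Col10a1 level, and the share of Foxa2 also went up, within overlapping intervals. These profiles were cut into 3 parts of 46, 45 and 46 profiles, with Col10a1 at 1.20 to 7.34, 7.44 to 10.09 and 10.10 to 14.62. Mef2c was detected in 5.13% of the profiles without Col10a1 and then in 32.6%, 48.9% and 65.2% of the 3 parts. Foxa2 was detected in 2.56%, 23.9%, 42.2% and 50%, and the intervals of its lowest part (12.6 to 38.8%) and highest part (34.9 to 65.1%) overlapped, which those of Mef2c (19.5 to 48% and 49.8 to 78.6%) did not. Foxa3 had 33.3%, 67.4%, 88.9% and 82.6%, so that its share did not go up between the last 2 parts. Sp7 had 35.9%, 45.7%, 48.9% and 50%, with intervals that all overlapped, and Runx2 had 20.5%, 4.35%, 11.1% and 6.52%. Detected genes had medians of 3025, 3492, 3491 and 3610, so among the 3 parts they differed little. The median level of Foxa2, where detected, was 3.07, 5.13 and 5.47 over the 3 parts, and that of Mef2c was 3.14, 3.04 and 4.13.

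**Figure D4:**
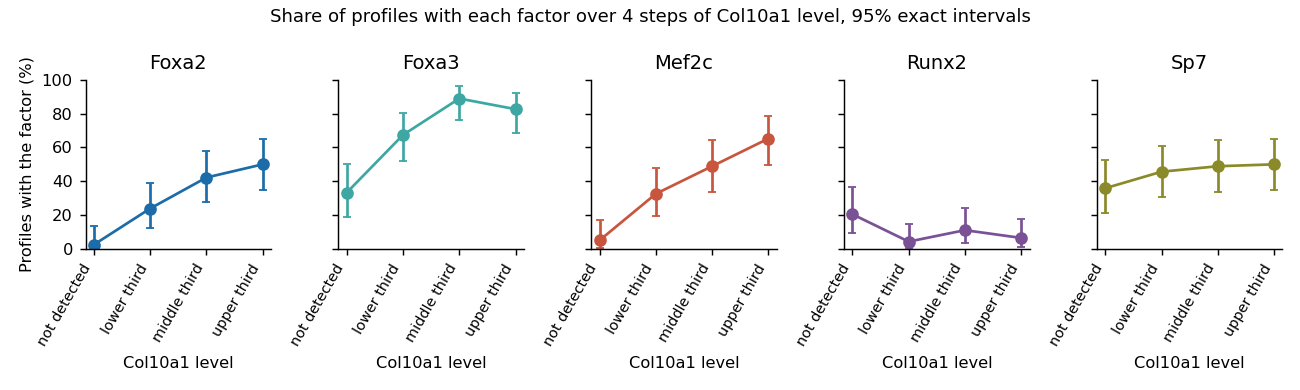
Percentage of profiles with each factor (95% exact intervals) in the 39 profiles without Col10a1 and in 3 parts of the Col10a1-positive profiles from low to high level (46, 45 and 46 profiles). Foxa2 and Mef2c climb over all 4 steps, Foxa3 levels off, and the intervals of Sp7 overlap throughout.

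With Ihh the same 3 factors were more frequent, by less. Foxa2 was detected in 27 of 61 Ihh-positive profiles (44.3%, 31.6 to 57.6%), against 27 Ihh-negative ones (23.5%, 16.1 to 32.3%), and Foxa3 in 51 (83.6%, 71.9 to 91.9%), against 71 (61.7%, 52.2 to 70.6%). Mef2c was detected in 34 (55.7%, 42.4 to 68.4%), against 35 (30.4%, 22.2 to 39.7%). The intervals of Foxa2 overlapped narrowly, with a difference of 20.8 points (5.31 to 36), and those of Foxa3 and Mef2c did not. Sp7 was detected in 34 (55.7%), against 46 (40%), with overlapping intervals, and Runx2 in 6 (9.84%), against 12 (10.4%). Over all genes 2.60% were higher by at least 20 points, and 3 of the 5 factors were, Mef2c with the greatest difference of them (25.3 points, number 53 of 8853), then Foxa3 (21.9) and Foxa2 (20.8). The median number of detected genes was 3684 in Ihh-positive profiles, against 3306. In each set of 88 profiles the Ihh-positive and Ihh-negative intervals of all 5 factors overlapped.

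With Ibsp, Mef2c and Foxa3 were more frequent, while the shares of Foxa2 lay close together. Mef2c was detected in 25 of 37 Ibsp-positive profiles (67.6%, 50.2 to 82%), against 44 Ibsp-negative ones (31.7%, 24 to 40.1%), number 22 of 8853 genes. Foxa3 was detected in 34 (91.9%, 78.1 to 98.3%), against 88 (63.3%, 54.7 to 71.3%). Foxa2 was detected in 13 (35.1%, 20.2 to 52.5%), against 41 (29.5%, 22.1 to 37.8%), number 4101. Sp7 had 59.5%, against 41.7%, and Runx2 had 5.41%, against 11.5%, both with overlapping intervals. The background was 6.99% of genes higher by at least 20 points. Of the 37 Ibsp-positive profiles, 33 were among the 88 with more genes detected, where Mef2c was found in 24 of 33, against 24 of 55 Ibsp-negative ones (72.7%, against 43.6%), with overlapping intervals. The interval of this difference (29.1 points) ran from 6.06 to 48.4. Foxa3 was found there in 31 of 33, against 43 of 55, a difference of 15.8 points whose interval of -1.58 to 30 spans 0. With any value above 0 counted as detected, the difference with Ibsp was 20.8 points for Mef2c in place of 35.9, and 15.5 for Foxa3 in place of 28.6. With detection set at 10 before the log, it was 16.2 for Foxa3. With 4 Ibsp-positive profiles among the others, no comparison could be read there. When the 11 profiles with low Acan were included, the difference for Foxa3 was 11.5 points.

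Profiles were also sorted by all 3 markers together. None of the 3 markers was detected in 29 profiles, and there Foxa2 and Mef2c were detected in 0 of 29 (exact interval 0 to 11.9%, and a floor of 3 counts in 29 is 10.3%). These bounds limit profiles with detection and not cells that express the gene. In the same 29, Foxa3 was in 8, Sp7 in 10 and Runx2 in 6. In the 69 profiles with Col10a1 alone, Foxa2 was in 23 (33.3%), Mef2c in 27 (39.1%) and Foxa3 in 49 (71%). In the 34 with Col10a1 and Ihh, Foxa2 was in 17 (50%), Mef2c in 16 (47.1%) and Foxa3 in 27 (79.4%). In the 20 with all 3 markers, Foxa3 was in all 20 and Mef2c in 17 (85%, 62.1 to 96.8%), while Foxa2 was in 9 (45%, 23.1 to 68.5%). The median number of detected genes was 4154.5 in these 20, against 2954 in the 29 with none, and the part of this in the shares was not tested.

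The aggrecan-low profiles divided the factors differently. In the 11 profiles with Acan under 5, Col1a1, which encodes the main collagen chain of bone, was detected in 8 and Ibsp in 9, and Col10a1 in 2. Foxa2 and Foxa3 had an exact 0 in all 11 (exact interval 0 to 28.5%, and a floor of 3 counts in 11 is 27.3%). Mef2c was detected in 5 of 11 (45.5%, 16.7 to 76.6%), Sp7 in 5 and Runx2 in 2 (18.2%, 2.28 to 51.8%). For Foxa3 the exact interval lay below that in the chondrocyte profiles, and for the other 4 factors the intervals overlapped. Within the chondrocyte profiles, Mef2c was detected in 16 of 24 profiles with Col1a1 (66.7%, 44.7 to 84.4%), against 53 without it (34.9%, 27.3 to 43%), and Sp7 in 14, against 66 (58.3% and 43.4%). Without the 24 profiles that had Col1a1, the differences with Col10a1 were 35.6 points for Foxa2, 45 for Foxa3 and 42.5 for Mef2c. Profiles were left out by Col1a1 alone, and Col1a2 was detected in 88.6% of the chondrocyte profiles.

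Among themselves, Foxa2, Foxa3 and Mef2c shared many profiles. Of the 39 profiles without Col10a1, Foxa2 was in 1, Mef2c in 2 and Foxa3 in 13. The shares that follow pool profiles with and without Col10a1. What part Col10a1 status has in them was not tested. Mef2c was found in 33 of 54 Foxa2-positive profiles (61.1%, 46.9 to 74.1%), against 36 Foxa2-negative ones (29.5%, 21.6 to 38.4%). Mef2c was number 4 of 8853 genes by this difference, and 1.59% of genes were higher by at least 20 points. Mef2c was found in 59 Foxa3-positive profiles (48.4%, 39.2 to 57.6%), against 10 of 54 Foxa3-negative ones (18.5%, 9.25 to 31.4%), where the background was 3.75%, and with detection set at 10 before the log this difference was 9.51 points in place of 29.8. Foxa3 was found in 43 of 54 Foxa2-positive profiles (79.6%, 66.5 to 89.4%), against 79 Foxa2-negative ones (64.8%, 55.6 to 73.2%), and these intervals overlapped. In the 88 profiles with more genes, Mef2c was in 24 of 33 Foxa2-positive profiles, against 24 of 55, and with fewer genes in 9 of 21, against 12 of 67.

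Sp7 was found in 30 of 54 Foxa2-positive profiles (55.6%), against 50 Foxa2-negative ones (41%), and in 39 of 69 Mef2c-positive ones (56.5%), against 41 Mef2c-negative ones (38.3%), with overlapping intervals. The differences were 14.6 points (-2.35 to 30.7) with Foxa2 and 18.2 (2.28 to 33.3) with Mef2c. In the 88 profiles with more genes detected they were 1.82 and 6.25 points, and in the 88 with fewer both were 25.8. What part the number of detected genes has in the pooled differences was not tested. Runx2, the rarest factor, was seen without the other 4 in 2 of its 18 profiles. Mef2c was in 4 of 18 Runx2-positive profiles (22.2%, 6.41 to 47.6%), against 65 Runx2-negative ones (41.1%, 33.4 to 49.2%), and Foxa2 was also in 4, against 50. Foxa3 was in 14 of the 18 (77.8%), against 68.4% of Runx2-negative ones, and Sp7 in 11 (61.1%, 35.7 to 82.7%), against 69 (43.7%, 35.8 to 51.8%). All 4 pairs of intervals overlapped, and 18 profiles set wide limits. Among genes as a whole, 2.80% were higher by at least 20 points with Runx2, and none of the other 4 factors was.

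Foxa2, Foxa3 and Mef2c, picked for their differences with Col10a1, were also counted together, and the counts restate that choice. None of the 3 was detected in 36 profiles, 1 in 65, 2 in 45 and all 3 in 30. Col10a1 was detected in 12 of 36 (33.3%, 18.6 to 51%), 51 of 65 (78.5%, 66.5 to 87.7%), 44 of 45 (97.8%, 88.2 to 99.9%) and 30 of 30 (88.4 to 100%). Its median level was 0.20, 7.16, 9.64 and 10.07. The median number of detected genes was 2990.5, 3361, 3633 and 3624, so the last 2 steps were alike in this while the first 2 were not. Counted over all 5 factors, 26 profiles had none, 39 had 1, 50 had 2, 42 had 3, 17 had 4 and 2 had all 5. Of the 26 with none, 10 had Col10a1. The commonest sets were Foxa3 alone in 24 profiles (21 with Col10a1), Foxa3 with Sp7 in 18 (12 with Col10a1) and Foxa3, Mef2c and Sp7 in 16 (all with Col10a1). Neither Runx2 alone (2 profiles) nor Runx2 with Sp7 only (2 profiles) was seen with Col10a1.

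**Figure D5:**
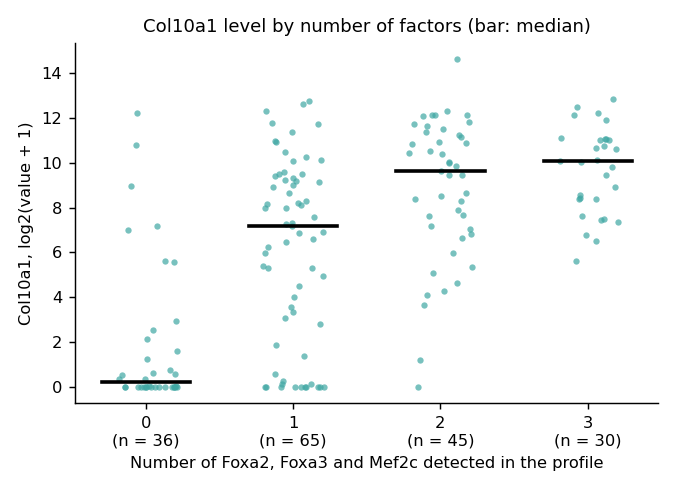
Level of Col10a1, log2(value + 1), in each chondrocyte profile by the number of Foxa2, Foxa3 and Mef2c detected in it, with the median as a bar. The median is 0.20 with none of the 3 (36 profiles), 7.16 with 1 (65), 9.64 with 2 (45) and 10.07 with all 3 (30). These 3 factors were picked for their differences with Col10a1, so the plot restates that choice.

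Products of hypertrophic chondrocytes were set beside each factor. Of 16 measured genes on that list, 3 had a share higher by at least 20 points in Foxa2-positive profiles, 5 in Foxa3-positive and 5 in Mef2c-positive ones. These were Col10a1, Ihh and Cd200 with Foxa2, and the same with Ibsp and Ptgis with Foxa3 and Mef2c. All are either the 3 markers or genes listed because of earlier results of these data, so the counts restate how the list was made. None of the other 11 genes, among them Spp1, Mmp13 and Bmp6, passed with any of the 5 factors. The median difference over the list was 5.72 points for Foxa2, against 2.09 over all genes, and 10.9 for Foxa3, against 3.70. For Mef2c it was 14, against 3.86. These medians, and those given below for Sp7 and Runx2, include the same markers and listed genes. They therefore also restate the list in part, and medians without those genes were not computed. With Mef2c the background was 3.49% of genes. Cd200, a cell-surface glycoprotein gene, had the greatest difference of the list with Mef2c, at 79.7% of Mef2c-positive profiles, against 32.7% of Mef2c-negative ones. It was detected in 68.5% of Foxa2-positive profiles, against 43.4%, and in 59% of Foxa3-positive ones, against 33.3%. Ptgis, which encodes prostacyclin synthase, was detected in 58.2% of Foxa3-positive profiles, against 25.9%, and in 65.2% of Mef2c-positive ones, against 37.4%. With Sp7 no gene of the list passed 20 points and the median was 6.98, against 2.29, where the background was 0.576%. With Runx2 none passed, 1 (Col10a1) was lower by as much, and the median was 1.30, against 0.07. Col10a1 was number 8823 of 8853 genes by its difference with Runx2, and the share of all genes lower by 20 points was not counted.

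Other transcription factors of late chondrocytes gave 1 of 22 genes past 20 points with Foxa2, 3 with Foxa3, 4 with Mef2c, 1 with Runx2 and 0 with Sp7. Over all genes the shares past 20 points were 1.59%, 3.75%, 3.49%, 2.80% and 0.576% in the same order, so that 1 of 22 with Foxa2 or Runx2 is near the background. This list, like those of relatives and resting markers below, was chosen with earlier results of these data known. The counts are therefore not an independent comparison. With Col10a1 itself 4 of the 22 passed, beside 6.08% of all genes, and what part Col10a1 status has in the counts was not tested. Klf3, a Kruppel-like zinc finger gene, was detected in 76.8% of Mef2c-positive profiles, against 40.2%, and in 72.2% of Foxa2-positive ones, against 46.7%. Vdr, the vitamin D receptor, was detected in 71% of Mef2c-positive profiles, against 46.7%, and in 64.8% of Foxa3-positive ones, against 37%. Dlx3, a homeobox gene, was detected in 36.2% of Mef2c-positive profiles, against 15.9%, and in 30.3% of Foxa3-positive ones, against 9.26%. Gli3, which mediates hedgehog signals, was the 1 past 20 points with Runx2, at 50%, against 29.1%. Klf10 and Tcf7l2 were lower by at least 20 points with Runx2, and the share of all genes lower by as much was not counted.

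Of the relatives, partners and inhibitors of the 5 factors, 17 genes could be compared, and 0 passed 20 points with Foxa2, 2 with Foxa3, 0 with Mef2c, 0 with Runx2 and 2 with Sp7, beside 1.59%, 3.75%, 3.49%, 2.80% and 0.576% of all genes. Runx3, which acts together with Runx2 in mouse chondrocytes, was detected in 58.5% of profiles, against the 10.2% of Runx2, although the 2 transcripts may differ in capture. Runx3 was detected in 63.5% of Col10a1-positive profiles, against 41% of Col10a1-negative ones. Cbfb, the partner of RUNX proteins, was detected in 16 (9.09%). Mef2a and Mef2d, relatives of Mef2c, were detected in 83.5% and 32.4%. The 2 past 20 points with Foxa3 were Runx3, at 64.8% of Foxa3-positive profiles, against 44.4%, and Mef2d, at 39.3%, against 16.7%. Hdac4, the inhibitor of MEF2C, was detected in 15.9% of Mef2c-positive profiles, against 18.7% of Mef2c-negative ones, and in 5.56% of Foxa2-positive profiles, against 23% of Foxa2-negative ones. Foxo1, a forkhead gene, was detected in 88.8% of Sp7-positive profiles, against 61.5%, and Foxc1, another, in 71.2%, against 51%.

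Few markers of resting chondrocytes passed 20 points with any factor. Sfrp5, a secreted WNT antagonist, was detected in 22.2% of Foxa2-positive profiles, against 44.3% of Foxa2-negative ones, but in 55.6% of Runx2-positive profiles, against 35.4% of Runx2-negative ones. Ucma, which encodes a cartilage matrix protein, was detected in 48.1% of Foxa2-positive profiles, against 64.8%. Of the 6 resting genes compared, Sfrp5 alone was lower by at least 20 points with Foxa2 and alone was higher by as much with Runx2, which was detected in 18 profiles. Over all genes 1.59% and 2.80% were higher by at least 20 points with Foxa2 and Runx2. The share of all genes lower by as much was not counted, so the lower Sfrp5 has no background. Cd200, which both the resting and the hypertrophic list hold, was the 1 higher with Foxa2. Whether the factors differ from each other in this was not tested.

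The genes whose levels followed each factor most closely were ranked by Spearman's rho over the chondrocyte profiles, among 7143 genes detected in at least 10% of them. These profiles share one sample and differ in the number of genes detected, so rho is a description. Mef2c had the highest values, with Cd200 (0.52), Ccdc80 (0.48), Unc5b (0.47), Cep85l (0.47) and Smpd3 (0.47). Foxa3 was followed by Smpd3 (0.47), Panx3 (0.41), Col10a1 (0.41), Ccdc80 (0.40) and Fam101a (0.40). Smpd3 encodes a neutral sphingomyelinase needed for bone and cartilage mineralization in mice, and Panx3 a channel protein of prehypertrophic chondrocytes. Foxa2 was followed by Col10a1 (0.39), Adk (0.37), Map1lc3b (0.36), Cd200 (0.36) and Cited2 (0.35). Sp7 was followed by Foxo1 (0.37), Fam193b (0.34), Id2 (0.29), Aldh3a2 (0.29) and Sppl3 (0.28). Runx2 was followed by Ccbl1 (0.28), Ulk2 (0.27), Pus3 (0.27), Tor2a (0.27) and Rpl34 (0.25), which are weak values in sparse data. Among the factors themselves rho was highest for Foxa2 and Mef2c (0.32) and lowest for Mef2c and Runx2 (-0.13). With Col10a1 it was 0.46 for Mef2c, 0.09 for Sp7 and -0.08 for Runx2. Some values of rho differed between the 88 profiles with more genes detected and the 88 with fewer. In this order, Panx3 with Foxa3 had 0.19 and 0.56, Foxa2 with Mef2c 0.42 and 0.16, and Ccbl1 with Runx2 0.38 and 0.10. Others were alike, such as Map1lc3b with Foxa2 at 0.35 in both. What part the number of detected genes has in rho was not tested.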

How the data were processed

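Full-length cDNA of single cells from tibial growth plates of wild-type C57/BL mice was sequenced. Reads were aligned with TopHat to mm10, per the submitters' processing notes. The tool and unit of the abundances, and the annotation behind them: not given in the sources used here. Deposited by the authors were log2 values with a lowest value of 0, read here as log2(value + 1) from the values themselves; a file of 9739 genes holds each gene above 0 in at least 10 columns, and sequencing depth is unknown. Per-column totals, after undoing the log2 of the deposited values, were 394406 to 616257.

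Of 217 columns, 52 in 23 sets correlated above 0.95 (lowest 0.964) and were averaged within sets. Column Cell_204 was dropped as mixed. A gene was detected at 1 or more on the log2 scale. The 187 profiles are 1 sample of 1 group, so no test was run; shares have exact Clopper-Pearson intervals, and intervals of differences were formed from them. Comparisons ran over all 8853 genes detected in at least 5% of the 176 profiles with Acan of at least 5, with 20 points as the size named. Of these 176, 137 had Col10a1, 61 Ihh and 37 Ibsp, and 122 had Foxa3. SciPy 1.17.1 gave the intervals, pandas 2.3.3 and NumPy 2.4.6 under Python 3.11.15 the rest, and matplotlib 3.10.9 the plots. The calculation was tested on simulated data. Doublets were not called.

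The members and the gene lists were chosen with earlier results of these data known, and Cd200 and Ptgis entered a list that way. Genes named are the 5 factors, Acan, the 3 markers, listed genes of largest or smallest difference, and the 5 genes of highest rho with each factor. Coordinates come from GENCODE M21 and promoters from RefSeq on GRCm38.p6, matched by symbol; 4 of the 5 factors matched. Alternatives were other detection and Acan thresholds, repeats kept apart or 1 column of each, Cell_204 kept, all profiles, upper-quartile scaling, profiles with more or fewer genes, and leaving out profiles with fewest genes or with Col1a1.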

Additional observations from a re-analysis of the deposited data

How the results depend on the processing

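No paired analysis was possible because all cells belong to 1 group. Over 12 alternatives, the difference between Col10a1-positive and Col10a1-negative profiles ran from 28.6 to 42.3 points for Foxa2, 15.9 to 51.3 for Foxa3, 19.8 to 50.3 for Mef2c, -17.3 to -5.65 for Runx2 and 3.85 to 16.7 for Sp7. Signs changed for Runx2 with Ihh under 4 alternatives, Foxa2 with Ibsp under 2 and Runx2 with Foxa3 under 1. The difference of Sp7 with Runx2 reversed with detection set at 10 before the log and was 0 in the profiles with fewer genes. With detection set at 10 before the log, Foxa2 was in 20.5%, Foxa3 in 49.4%, Mef2c in 18.2% and Sp7 in 27.3% of profiles, the Col10a1 difference of Mef2c was 19.8 points, that of Sp7 with Runx2 was -14.1, and 284 genes in place of 538 passed 20 points with Col10a1. With any value above 0, 328 in place of 619 genes passed with Ibsp. With all profiles, the Ibsp difference of Foxa3 was 11.5 points. In the 88 profiles with more genes, Foxa3 was in 84.1%, Mef2c in 54.5% and Sp7 in 53.4%, and the Col10a1 difference of Foxa3 was 15.9 points. In the 88 with fewer genes, Foxa2 was in 23.9%, Foxa3 in 54.5%, Mef2c in 23.9% and Sp7 in 37.5%, and the Ibsp differences, resting on 4 Ibsp-positive profiles, were 1.19 points for Mef2c and 39.3 for Sp7. The cause was not tested where the number of profiles or the threshold does not give it. Depth is unknown, and 18 profiles with Runx2 leave its differences with wide limits.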
